A study of Mus musculus with 6 samples.

Results

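The genes described here are 37 genes of lysosomal hydrolases, their helper proteins and proteins of the lysosomal membrane. They were taken by their symbols from a list of functions, drawn up when earlier results of these data were known. All 37 were found once among the 55487 genes of the deposited table, and all 37 had at least 10 reads in each of the 6 libraries. RNA was measured by RNA-seq in vascular endothelial cells (VECs) sorted from the retinas of mouse pups at postnatal day 7.5 (P7.5). The control group held 3 tdTomato FL/+;Pdgf-icreER animals, and the Bmal1;CKO group held 3 Bmal1 FL/FL;tdTomato FL/+;Pdgf-icreER animals. Both groups carried the tdTomato reporter and the Cre transgene, both were given tamoxifen between P0.5 and P2.5, and retinas were taken at noon. The study used the pair to ask what the loss of Bmal1, a core clock factor, does to the transcripts of VECs.

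Pdgf-icreER is a tamoxifen-inducible Cre driven by a Pdgf promoter that is active in endothelial cells, and the same transgene makes GFP. Cells positive for both GFP and tdTomato were sorted, so that a cell needed the transgene and a recombined reporter to be collected. A recombined reporter is not a direct sign of a recombined Bmal1 gene in the same cell. The small amount of RNA from the sorted cells was amplified before the libraries were made. Control libraries are called 1 to 3 and Bmal1;CKO libraries 4 to 6, after their place in the deposited table. Each library came from a separate animal.

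Lysosomes are acidic organelles in which hydrolases break down lipids, glycans, proteins and glycogen that arrive by endocytosis, phagocytosis or autophagy. Most of the enzymes are made in the endoplasmic reticulum and are sorted to the lysosome by a mannose 6-phosphate tag, while membrane proteins line the organelle and move ions, cholesterol and products across it. Many of these genes share a promoter element that is read by TFEB and its relatives, the MiT/TFE factors, and its core is the same E-box that BMAL1 and CLOCK bind. Endothelial cells have lysosomes as all nucleated cells do, and microglia, the phagocytes of the retina, are known for high levels of lysosomal enzymes.

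The E-box letters CACGTG, which read the same on both strands, were searched in RefSeq promoter windows of build GRCm38.p6, each of 250 bases before and 50 after an annotated start. A window was given for 34 of the 37 genes, and 9 of these 34 (26.5%) held CACGTG, against 8.09% of the 27025 genes with a window. Of 53 other lysosome genes with a window, listed by function, 17 (32.1%) held it. The longer form TCACGTG, which contains CACGTG and was searched on both strands, stood in the same number of lysosomal genes, 9 of 34 (26.5%), against 4.29% of all genes and 16 of the 53 other lysosome genes (30.2%). The form GTCACGTG, which contains both shorter forms, stood in 8 of 34 (23.5%) against 2.55% of all genes and 11 of the 53 (20.8%). The 9 genes were Arsa, Gaa, Gla, Glb1, Lamp1, Lgmn, Mcoln1, Naglu and Sgsh. They held 14 sites in all, and 3 genes held more than 1 site. A match is a description of the letters and not a measured binding site.

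The stretches around these sites are shown because they hold the searched letters in the 9 genes, while the other 25 genes with a window held none. They read 5′ to 3′ on the strand of the gene, and capitals mark the longest of the searched forms, on either strand, at each site. In Lamp1 the 4 sites lay within 73 bases ending at the start (chr8:13159088-13159160, plus strand), and in Gla 2 sites lay within 63 bases (chrX:134601182-134601244, minus strand). The CACGTG letters of the 2 sites of Mcoln1 began at -71 and -45 from the start. They are shown in 2 stretches that overlap at their ends (chr8:3500436-3500465 and chr8:3500462-3500491, plus strand). The single sites were in Arsa (chr15:89477425-89477452, minus), Gaa (chr11:119267811-119267840, plus), Glb1 (chr9:114401018-114401047, plus), Lgmn (chr12:102439124-102439153, minus), Naglu (chr11:101070009-101070038, plus) and Sgsh (chr11:119355522-119355551, minus).
Lamp1: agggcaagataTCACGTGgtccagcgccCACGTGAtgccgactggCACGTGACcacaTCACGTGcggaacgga
Gla: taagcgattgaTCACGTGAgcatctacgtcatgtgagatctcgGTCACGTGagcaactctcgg
Mcoln1, first site: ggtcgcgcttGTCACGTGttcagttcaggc
Mcoln1, second site: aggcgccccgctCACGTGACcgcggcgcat
Arsa: tcaactcagtGTCACGTGttgtctgctc
Gaa: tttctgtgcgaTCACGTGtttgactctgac
Glb1: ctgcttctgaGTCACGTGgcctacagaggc
Lgmn: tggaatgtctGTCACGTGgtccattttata
Naglu: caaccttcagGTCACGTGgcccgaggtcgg
Sgsh: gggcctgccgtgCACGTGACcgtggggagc

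Each value below is a normalized count, which is the number of reads on a gene divided by the size factor of its library. The libraries held 71145068 to 104017800 reads on genes, so counting error was small for these genes, whose lowest count in any library was 162 reads. Genes were tested on the log2(normalized count + 1) scale with limma-trend over 20459 genes, and log2 differences are Bmal1;CKO minus control. In these bulk samples, fewer cells of a type and less RNA per cell cannot be told apart. Arntl, the gene of Bmal1, was read at 1700, 3489 and 2928 in control and at 1779, 2747 and 2415 in Bmal1;CKO. The groups overlapped, and the log2 difference was -0.19 with an adjusted p of 0.924 by limma-trend with Benjamini-Hochberg adjustment. The count over the whole gene does not show whether the floxed part of the transcript was lost. By ddPCR, another measure, the paper reports significantly fewer Bmal1 copies in sorted endothelial cells of the mutant genotype.

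The libraries held high levels of transcripts of other cell types. The 12 markers of microglia and macrophages, none of them at 0 in any library, summed to between 1553220 and 4613260 in control and between 2175470 and 4435960 in Bmal1;CKO. The 14 endothelial markers, also none of them at 0, summed to between 207503 and 433156 in control and between 127542 and 269538 in Bmal1;CKO. The 9 rod markers, none of them at 0, summed to between 680446 and 807677 in control and between 534631 and 848810 in Bmal1;CKO, above the endothelial sum in every library. The median microglial marker stood 6.23 to 22.1 times over the median endothelial marker, depending on the library. Between the groups, 9 of the 12 microglial markers had a positive log2 difference with a median of 0.34, and 14 of the 14 endothelial markers a negative one with a median of -0.50. Control library 1 was the highest for 12 of the 14 endothelial markers, and Bmal1;CKO library 5 was the lowest for all 14. In the other libraries the order was reversed. Endothelial sums there were 231555 and 207503 in control libraries 2 and 3, and 236610 and 269538 in Bmal1;CKO libraries 4 and 6. The rod markers had a median of -0.14, with 8 of 9 negative. None of the markers of these 3 lists passed the test at a false discovery rate (FDR) of 0.05 or had groups that did not overlap. Which cells the lysosomal transcripts came from cannot be told in these libraries, and the part of the microglial and rod transcripts in the differences below was not tested.

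The lysosomal genes were among the well-expressed genes of these libraries. Levels between genes are compared as normalized counts per kb of merged exons, averaged over all 6 libraries. The median of the 37 genes was 1549 per kb, against 193 per kb for all genes tested, and 29 of the 37 lay above the 75th percentile of all genes. Grn, which encodes progranulin, a secreted glycoprotein that is cut into granulins in the lysosome, had the highest level of the list at 48108 per kb. It was followed by Laptm5, a lysosomal membrane protein known mainly from blood and immune cells, at 30787 per kb. Lamp1, a main glycoprotein of the lysosomal membrane, stood at 29063 per kb. Psap, the precursor of the saposins that present sphingolipids to their enzymes, stood at 26464 per kb.

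Below them came the cysteine protease Lgmn at 20853 per kb and the cholesterol carrier Npc2 at 15188 per kb. Hexa, the alpha subunit of beta-hexosaminidase, stood at 11335 per kb, and the glycosidases Gusb, Naglu and Fuca1 at 8651, 8021 and 7954 per kb. At the other end were Sgsh, which removes sulfate from heparan sulfate, at 151 per kb and Ids, which removes sulfate from heparan and dermatan sulfate, at 117 per kb. Only these 2 of the 37 genes lay below the median of all genes tested. Grn stood above Laptm5 in every library, whereas Laptm5 and Lamp1 changed places from library to library.

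**Figure D1:**
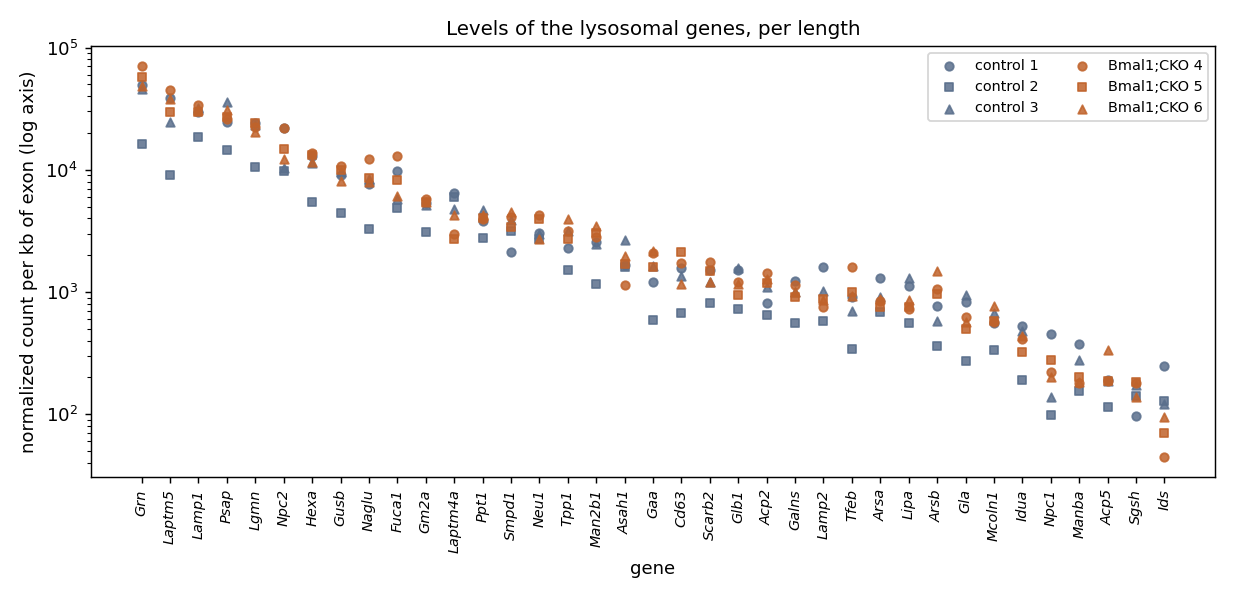
Normalized count per kb of merged exon (log axis) of each of the 37 genes in the 3 control libraries (blue) and the 3 Bmal1;CKO libraries (orange), ordered by the mean over all 6 libraries. Levels ran from 48108 per kb for Grn to 117 per kb for Ids, and the blue square of control library 2 was the lowest point for 32 of the 37 genes.

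The main pattern among the libraries was a low level of these genes in control library 2. Their sum was 952269, 431493 and 848059 in control libraries 1 to 3, and 1104160, 913131 and 900808 in Bmal1;CKO libraries 4 to 6. Control library 2 lay far below the rest, control library 3 lay just below the lowest Bmal1;CKO library, and control library 1 lay within the range of the Bmal1;CKO libraries. Control library 2 was the lowest library for 32 of the 37 genes (86.5%) and the highest for 0, while it was the lowest for 18.3% of all genes tested. Over all genes tested, control library 1 was the most extreme, as the lowest for 36.4% and the highest for 26.9%. The paper reports that the control sample tdTom1 looked like an outlier in its principal component analysis. Column names do not show which control library that sample is, but read totals match it to control library 1. In the paper, tdTom3 had the most mapped reads of the control samples, tdTom2 the fewest, and tdTom1 lay between. Reads on genes here were 87212411 in control library 1, between 80277953 in control library 2 and 104017800 in control library 3. The median deviation of the 37 genes from their own 6-library mean was -0.74 on the log2 scale in control library 2 and between 0.08 and 0.24 in the other libraries. As a share of all reads on genes, the 37 genes took 0.579% in control library 2 and between 0.887% and 1.17% in the others.

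The median log2 deviation of the microglial markers was -0.78 in control library 2 and -0.64 in control library 3, where the lysosomal genes stood at 0.17. The microglial list was split, with 8 of its 12 markers lowest in control library 2 and 4 in control library 3. Csf1r, Cx3cr1 and Tmem119 were read at 39021, 56491 and 18130 in control library 2 and at 102929, 124580 and 46317 in control library 3. C1qb and Trem2 were read at 594051 and 71124 in control library 2 and at 654743 and 70617 in control library 3. The sum of the 37 genes was 0.206 to 0.472 of the sum of the microglial markers, and it was 1.86 to 7.16 times the sum of the endothelial markers. The sum of the lysosomal genes therefore kept no fixed ratio to the sum of either marker list. The part of microglial or endothelial transcripts in the low level of control library 2 was not tested.

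**Figure D2:**
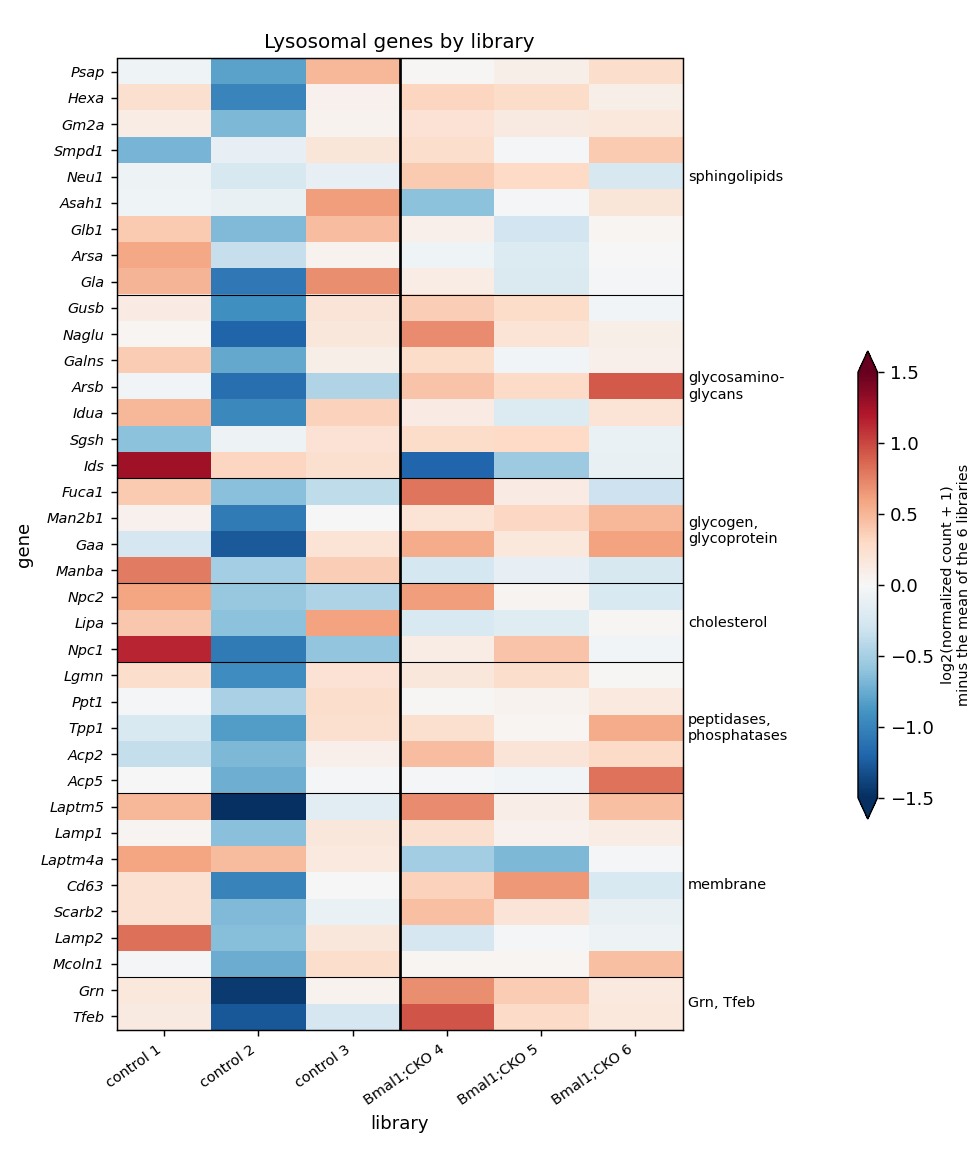
Log2(normalized count + 1) of each of the 37 genes (rows, grouped by role) in each library (columns), minus the mean of that gene over the 6 libraries, from blue (below the mean) to red (above it). The column of control library 2 is blue for most genes, and Ids and Laptm4a are above their means in all 3 control libraries and below them in Bmal1;CKO, apart from a value near 0 for Laptm4a in library 6.

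Of the 37 genes, 28 (75.7%) had a higher and 9 a lower mean log2 level in Bmal1;CKO, while 56.6% of all genes tested were higher. The median log2 difference was 0.34, against 0.11 for all 20459 genes tested and 0.03 for the 12032 genes whose level per kb lay in the same range. The differences ran from -1.23 for Ids to 1.08 for Arsb, and their quartiles were 0.08 and 0.51. None of the 37 genes passed an FDR of 0.05, with a smallest adjusted p of 0.883 by limma-trend with Benjamini-Hochberg adjustment. This was also so for all genes tested, of which 0 (0%) passed, while 1007 had an unadjusted p under 0.05 and DESeq2 called 67 at the same FDR. DESeq2 called none of the 37 either. The paper, which used DESeq2, reports both upregulated and downregulated genes at an FDR of 0.05 in the same comparison.

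The median rested on control library 2. Without it the median log2 difference of the 37 genes was 0.08, the same as the 0.08 of all genes in that fit, with 22 genes higher and 15 lower. Without control library 1 it was 0.48, with 32 genes higher and 5 lower. The spread within the control group, a median SD of 0.62 on the log2 scale, was larger than the 0.22 within Bmal1;CKO. The SD was larger in control for 33 of the 37 genes, and for 15335 of the 20459 genes tested. The 95% interval of the difference covered 0 for 33 of the 37 genes and had a median half-width of 0.83, so differences of up to about that size could not be told from 0 for a typical gene. The interval excluded a fall by 1 on the log2 scale for 30 genes and a rise by 1 for 11 genes. Over the 20459 genes tested it did so for 7675 and 7545 genes.

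At an unadjusted p under 0.05, 2 of the 37 genes (5.41%) were higher in Bmal1;CKO, against 3.17% of all genes tested, and 2 (5.41%) were lower, against 1.75%. In 5 genes (13.5%) all Bmal1;CKO libraries lay above all control libraries, against 6.62% of all genes, and in 2 genes (5.41%) all lay below, against 4.54%. With 3 libraries against 3, an exact permutation test cannot give a two-sided p below 0.1. These shares rest on few genes, and no test was made of the list as a whole. The genes with groups that did not overlap were Arsb, Tfeb, Man2b1, Acp2 and Gm2a above and Ids and Laptm4a below.

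**Figure D3:**
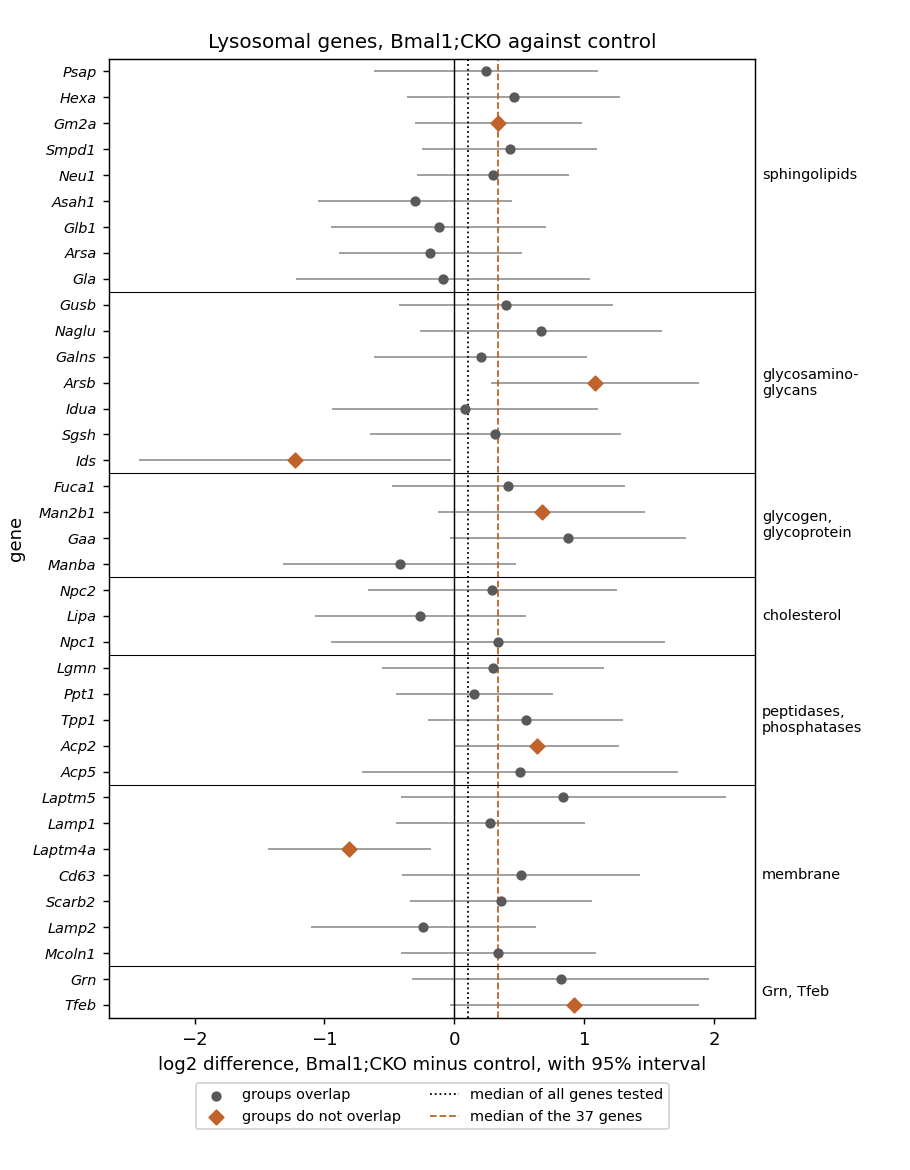
Log2 difference (Bmal1;CKO minus control, x axis) of each of the 37 genes (y axis, grouped by role), with its 95% interval from limma-trend as a bar. The interval covered 0 for 33 genes, the 7 orange diamonds are genes whose groups did not overlap, and the dotted and dashed lines mark the medians of all genes tested (0.11) and of the 37 genes (0.34).

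Among the enzymes of glycosaminoglycan breakdown, 6 of 7 had a positive difference, with a median of 0.32, and with edgeR or DESeq2 Idua turned from that side to a value just below 0. Arsb (ENSMUSG00000042082, GRCm38 chromosome 13, 93771629 to 93943016) encodes arylsulfatase B, which removes sulfate from dermatan and chondroitin sulfate. It was read at 4614, 2166 and 3484 in control and at 6398, 5781 and 8982 in Bmal1;CKO. All mutant libraries lay above all controls, and library 6 was the highest. The means were 3421 ± 1225 and 7054 ± 1698 (SD, n = 3 each), a ratio of 2.06. This gave a log2 difference of 1.08 (SE 0.34), with an adjusted p of 0.883 (0.0144 before adjustment) by limma-trend. Exons of the antisense long noncoding gene Gm26527 share 32.3% of the exon bases of Arsb, and the library kit does not mark strand, so reads of both cannot be told apart there.

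Ids (ENSMUSG00000035847, chromosome X, 70343068 to 70365084), iduronate 2-sulfatase, was the gene that differed most in the other direction. It was read at 1256, 651 and 616 in control and at 228, 355 and 482 in Bmal1;CKO. All mutant libraries lay below all controls, with control library 1 far above the rest. Its log2 difference was -1.23 (SE 0.52), with an adjusted p of 0.883 (0.0464 before adjustment) by limma-trend. Ids and Arsb act on overlapping substrates, and their differences were opposite in sign.

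Naglu, which cleaves N-acetylglucosamine from heparan sulfate, was read at 20290, 8652 and 22412 in control and at 32508, 22844 and 21220 in Bmal1;CKO. Gusb, beta-glucuronidase, was read at 41322, 20054 and 43319 in control and at 48741, 45704 and 36929 in Bmal1;CKO. For both genes control library 2 was the lowest and the groups overlapped, with log2 differences of 0.67 (SE 0.40) and 0.40 (SE 0.35). The remaining 3 genes of this role, the sulfatases Galns and Sgsh and the iduronidase Idua, had log2 differences of 0.20, 0.32 and 0.08. Sgsh shares 21.6% of its exon bases with Card14 on the other strand, but Card14 had at most 9 reads in any library.

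The genes of sphingolipid and ganglioside breakdown were split, with 5 of 9 higher, 4 lower and a median of 0.24. Psap was read at 67242, 40173 and 98926 in control and at 71170, 74297 and 83896 in Bmal1;CKO. The mutant libraries lay inside the range of the controls, and the log2 difference was 0.24 (SE 0.37). Without control library 2 this difference turned to -0.097.

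Hexa was read at 25687, 10907 and 22665 in control and at 27168, 26240 and 23078 in Bmal1;CKO. Control 1 lay among the mutant libraries, and the log2 difference was 0.46 (SE 0.35). Gm2a (ENSMUSG00000000594, chromosome 11, 55098114 to 55113029), the activator that presents GM2 ganglioside to beta-hexosaminidase, was read at 21969, 12798 and 21078 in control and at 23741, 22303 and 22624 in Bmal1;CKO. Its groups did not overlap, yet the gap between control 1 and Bmal1;CKO 5 was small beside the fall to control 2. Its log2 difference was 0.34 (SE 0.28), with an adjusted p of 0.883 by limma-trend.

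The other 6 genes of this role had overlapping groups. Smpd1, acid sphingomyelinase, and Neu1, a sialidase, had log2 differences of 0.43 and 0.30. The ceramidase Asah1, the sulfatase Arsa, the beta-galactosidase Glb1 and the alpha-galactosidase Gla had -0.30, -0.19, -0.12 and -0.09. The signs of Arsa, Glb1 and Gla each turned when a single control library was left out.

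Among the 4 enzymes of glycogen and glycoprotein breakdown, 3 were higher, with a median log2 difference of 0.54. Man2b1 (ENSMUSG00000005142, chromosome 8, 85083269 to 85098282), lysosomal alpha-mannosidase, was read at 20500, 9392 and 19650 in control and at 22679, 24320 and 27671 in Bmal1;CKO. All mutant libraries lay above all controls, and control 2 stood lowest. The log2 difference was 0.67 (SE 0.34), with an adjusted p of 0.883 by limma-trend, and it was 0.31 without control library 2.

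Gaa, the acid alpha-glucosidase that degrades glycogen, had a log2 difference of 0.88 and an unadjusted p of 0.0562 by limma-trend, with overlapping groups. Fuca1, alpha-fucosidase, was read at 32220, 15869 and 18839 in control and at 42762, 26810 and 19844 in Bmal1;CKO. Its groups overlapped, and the log2 difference was 0.41 (SE 0.39). Manba, beta-mannosidase, had a log2 difference of -0.42, opposite in sign to Man2b1.

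The 3 genes of cholesterol handling did not share a direction. Npc2, which hands cholesterol to the membrane protein NPC1, was read at 118366, 52659 and 56726 in control and at 120358, 80729 and 66712 in Bmal1;CKO. Control 1 and Bmal1;CKO 4 were both high, and the log2 difference was 0.29 (SE 0.41). Npc1 had a log2 difference of 0.34, while Lipa, the acid lipase that frees cholesterol from its esters, had -0.26.

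All 5 peptidases, thioesterase and phosphatases were on the higher side, with a median of 0.51. Control library 2 was the lowest for all 5, and the differences of Lgmn and Ppt1 turned negative without it. Acp2 (ENSMUSG00000002103, chromosome 2, 91202884 to 91214098), lysosomal acid phosphatase, was read at 4194, 3362 and 5685 in control and at 7409, 6162 and 6584 in Bmal1;CKO. All mutant libraries lay above all controls. On the log2 scale they differed by 0.64 (SE 0.27), with an adjusted p of 0.883 (0.0482 before adjustment) by limma-trend. Ddb2 on the other strand shares 12.6% of the exon bases of Acp2.

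Lgmn, legumain, was read at 56281, 24561 and 54122 in control and at 52423, 56047 and 47211 in Bmal1;CKO. Apart from control library 2, the 5 libraries lay close together, and the log2 difference of 0.30 (SE 0.37) turned to -0.092 without that library. The thioesterase Ppt1 had a log2 difference of 0.15, the peptidase Tpp1 0.55, and Acp5, the tartrate-resistant phosphatase, 0.51.

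Of the 7 membrane proteins, 5 were higher and 2 lower, with a median of 0.34. Laptm4a (ENSMUSG00000020585, chromosome 12, 8921663 to 8938742), a small membrane protein of late endosomes and lysosomes, was read at 11471, 10603 and 8425 in control and at 5308, 4772 and 7529 in Bmal1;CKO. All mutant libraries lay below all controls, and control library 2 was not the lowest here. The means were 10166 ± 1569 and 5870 ± 1462 (SD, n = 3 each), a ratio of 0.577. The log2 difference was -0.81 (SE 0.27), with an adjusted p of 0.883 (0.0179 before adjustment) by limma-trend. Leaving out 1 library at a time brought it no nearer to 0 than -0.67, without Bmal1;CKO library 5.

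Its relative Laptm5 went with the other pattern, at 147710, 34579 and 92857 in control and at 169806, 111730 and 143037 in Bmal1;CKO. The groups overlapped and control library 2 was far below the rest, with a log2 difference of 0.84 (SE 0.54). Laptm5 is also a transcript of microglia. Without it the median of the other 36 genes was 0.33, but leaving out a single gene can hardly move the median of the list. The part of microglial transcripts in Laptm5 or in the other genes was not tested. Lamp1 was read at 78740, 49380 and 86005 in control and at 90195, 79785 and 82360 in Bmal1;CKO. Control 3 lay within the mutant range and the log2 difference was 0.28 (SE 0.31).

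Lamp2, the other main LAMP protein, was read at 15250, 5509 and 9657 in control and at 7226, 8396 and 8152 in Bmal1;CKO. The mutant libraries lay within the spread of the controls, which differed more among themselves than the groups did. The log2 difference was -0.24 (SE 0.37), and it turned to 0.12 without control library 1. The tetraspanin Cd63, the glucocerebrosidase receptor Scarb2 and the calcium channel Mcoln1 had log2 differences of 0.51, 0.36 and 0.34, with overlapping groups.

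The precursor Grn and the factor Tfeb both stood on the higher side. Tfeb (ENSMUSG00000023990, chromosome 17, 47737029 to 47792419), the transcription factor named for lysosomal gene control, was read at 5152, 1936 and 3949 in control and at 9015, 5712 and 5216 in Bmal1;CKO. All mutant libraries lay above all controls, although control 1 and Bmal1;CKO 6 were close. Tfeb had a log2 difference of 0.92 (SE 0.41), with an adjusted p of 0.883 (0.0573 before adjustment) by limma-trend, and it was 0.52 without control library 2. Grn was read at 171081, 56526 and 158391 in control and at 247704, 199483 and 169584 in Bmal1;CKO. Control library 1 lay just above the lowest mutant library, so the groups overlapped by 1 library, and the log2 difference was 0.82 (SE 0.49).

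The level of a transcript says nothing of the location of the TFEB protein, which is controlled by phosphorylation. The 9 genes with CACGTG in their window had a median log2 difference of 0.30, with 6 higher and 3 lower, and ran from -0.19 for Arsa to 0.88 for Gaa. The 25 genes with a window and no CACGTG had a median of 0.40, with 20 higher and 5 lower. The 4 sites shown above for Lamp1 went with a log2 difference of 0.28 and the 2 of Gla with -0.09, while Arsb and Ids, at the ends of the list, held none in these windows.

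The rest of the lysosome was described with 73 other genes grouped by function, of which 72 were tested. The log2 difference was positive for 39 and negative for 33 of them, its median was 0.06, and 0 passed an FDR of 0.05. The medians differed from group to group, and these differences were not tested. The 14 other lysosomal enzymes had a median of 0.47 with 11 higher, the 10 genes of delivery to lysosomes 0.38 with 7 higher, and the 8 cathepsins 0.42 with 7 higher. The V-ATPase, the proton pump that acidifies the lysosome, had a median of -0.11 over 15 tested subunit genes with 5 higher. The 12 other membrane proteins had a median of -0.09 with 5 higher, and the 13 genes of the MiT/TFE factors and of mTORC1 docking a median of -0.07 with 4 higher.

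The low level of control library 2 was seen in some of these groups and not in others. It was the lowest library for 10 of the 14 other lysosomal enzymes and for 5 of the 10 genes of delivery. The median log2 deviations of these 2 groups in that library were -0.74 and -0.42. The cathepsins summed to 2409480, 885971 and 1653890 in control and to 2749440, 2266780 and 1745260 in Bmal1;CKO, with control library 2 far below. The V-ATPase genes summed to 240494, 216816 and 214104 in control and to 234990, 205924 and 190482 in Bmal1;CKO, and there control library 2 lay in the middle.

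**Figure D4:**
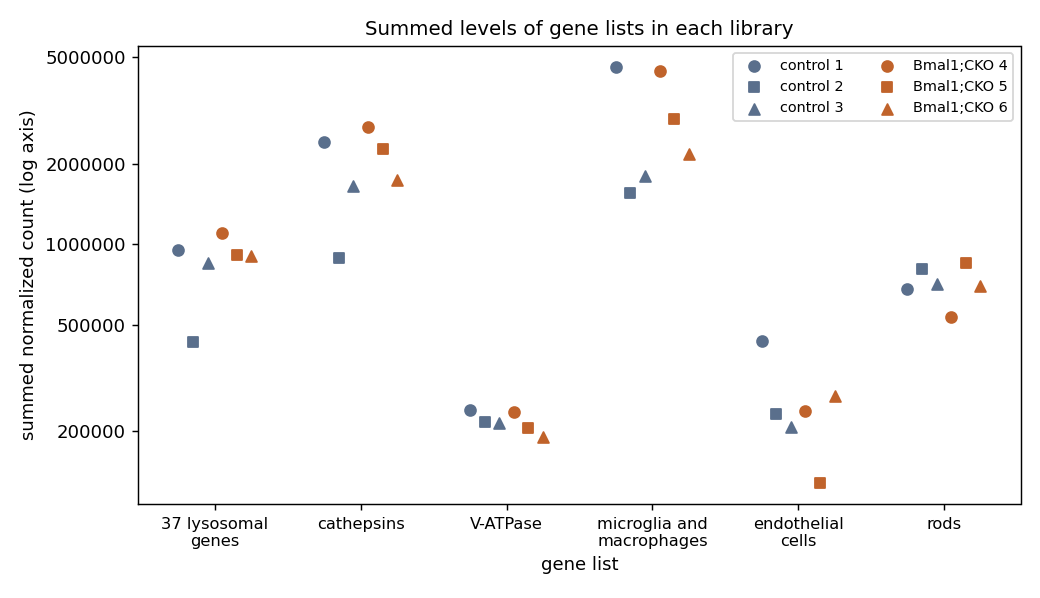
Summed normalized count (log axis) of 6 gene lists (x axis) in the 3 control libraries (blue) and the 3 Bmal1;CKO libraries (orange). Control library 2 (blue square) was the lowest for the 37 lysosomal genes (431493), the cathepsins and the microglial markers but not for the V-ATPase, endothelial or rod lists, and the groups overlapped for every list.

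At an unadjusted p under 0.05 by limma-trend, 1 of the 72 other genes was higher and 1 lower, against 3.17% and 1.75% of all genes tested. Tpcn2, a cation channel of the endolysosomal membrane, was read at 72.6, 296 and 387 in control and at 878, 574 and 758 in Bmal1;CKO. The groups did not overlap, and control library 1 was far below the rest. Tpcn2 had a log2 difference of 1.83 (SE 0.71), with an adjusted p of 0.883 by limma-trend. Lamtor3, a subunit of the Ragulator complex that docks mTORC1 on lysosomes, was read at 3126, 3960 and 1822 in control and at 1139, 2006 and 1508 in Bmal1;CKO. Its groups overlapped, and the log2 difference was -0.90 (SE 0.39), with an adjusted p of 0.883 by limma-trend. Over the 72 genes, 4 had all mutant libraries above all controls and 1 had all below, against 6.62% and 4.54% of all genes tested.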

How the data were processed

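RNA-seq was done on VECs sorted from P7.5 retinas of 3 control and 3 Bmal1;CKO animals, with 1 library per animal. The authors used FastQC for read quality, Trimmomatic for trimming, Bowtie for alignment to mm10 (Ensembl GRCm38 v87), featureCounts for counts per gene and DESeq2 for their comparison. Versions of these tools and the use of strand in counting are not given in the sources used here. The deposited table holds a signal per gene and library, the count divided by a DESeq2 size factor. Dividing each column by its smallest step gave whole reads for 100% of values (tolerance 0.02) and size factors of 0.711 to 1.40. The table also holds the authors' fold changes, p-values and adjusted p-values, which were not used. Column names give the genotype only, so each column was used as a replicate of its group. The labels name no batch.

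The 20459 genes that reached 10 reads in 3 or more libraries were tested by limma-trend (moderated linear models, variance trended on the mean) on log2(normalized count + 1). Genotype was the sole term, with Benjamini-Hochberg adjustment (R 4.3.3, limma 3.58.1). Fold changes are on that scale. The alternatives were edgeR 4.0.16 quasi-likelihood tests with TMM or size factors, DESeq2 1.42.0, limma-voom, log2 CPM, other pseudocounts (0.5, 10) and filters, no variance trend, and leaving out each library. On simulated data with 1 dispersion for all genes, estimated from these libraries, the fit returned the size of known changes but called none of them at the FDR threshold, and with a low dispersion it called them. Exon lengths are from GENCODE M21 (GRCm38), over the merged exons of all transcripts of a gene, and promoter windows from RefSeq (GRCm38.p6). Pandas 2.3.3 and matplotlib 3.10.9 were used.

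The 37 genes and all lists were chosen with earlier results of these data known. Values in every library are given for genes whose groups did not overlap or with an unadjusted p under 0.05, for the 10 of highest level per kb, and for Tfeb, Lamp1, Lamp2 and Laptm5.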

Additional observations from a re-analysis of the deposited data

How the results depend on the processing

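No gene of the 37 passed an FDR of 0.05 under any of the 16 alternatives. Over all genes tested, the count at that FDR was 67 with DESeq2, 61 with no variance trend, 6 without control library 1 and 1 with either other filter, and 0 under the rest. The median log2 difference of the 37 genes lay between 0.08 (without control library 2) and 0.48 (without control library 1) when a library was left out, and between 0.29 and 0.34 under the other alternatives. EdgeR and DESeq2 moved the median of all genes from 0.11 to -0.03, so that the 37 genes stood 0.32 over it in place of 0.23. The 4 genes of the 37 at an unadjusted p under 0.05 became 2 with edgeR under TMM scaling and 2 with no variance trend, and 1 to 8 when a library was left out, with 8 without control library 1, 2 without Bmal1;CKO library 6 and 1 without Bmal1;CKO library 4 or 5. The 2 other lysosome genes at that p became 1 under 4 alternatives and 0 to 10 when a library was left out. The sign of the log2 difference held in all 16 alternatives for 27 of the 37 genes. It turned for Lamp2 (0.12 without control library 1, range over the libraries left out -0.62 to 0.12), Lgmn (-0.092 without control library 2, range -0.092 to 0.51) and Psap (-0.097 without control library 2, range -0.097 to 0.55), among the genes given in full. Of the others it turned without control library 2 for Ppt1, Galns, Npc1 and Idua, without control library 1 for Arsa, without control library 1 or 3 for Glb1 and Gla, and with edgeR or DESeq2 for Idua. Adjusted p-values of Arsb lay between 0.359 and 1.00 over the alternatives, those of Ids between 0.409 and 1.00, of Laptm4a between 0.296 and 1.00 and of Acp2 between 0.291 and 1.00. The causes were not tested. No paired analysis was possible because the columns of the table carry no number that matches an animal in the labels. The 37 genes had at least 162 reads in every library, but with amplified RNA this does not bound the error from the small starting amount.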
